A study of Mus musculus with 12 samples.

Results

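Cells of the intestinal muscle wall that had been grown for 28 days on an electrospun scaffold of gelatin, in M medium, were compared with strips of intestinal muscle, the native tissue that served as positive control. The members are the libraries that the labels put in these groups, 3 of scaffold culture and 3 of strips, which are 6 of the 12 libraries of the series. Both groups came from wild-type mice. The cultured cells were primary cells dissociated from fresh muscle layers of the intestine. M medium, which the labels call differentiation medium, is Advanced DMEM/Ham's F-12 with N2, B27 without vitamin A, GlutaMAX (2 mM), HEPES (10 mM), N-acetylcysteine (1 mM), an antibiotic mixture, the BMP antagonist Noggin (100 ng/mL), the Wnt agonist R-spondin1 (1 µg/mL) and the kinase inhibitor Y27632 (10 µM). No serum is among its listed components. The strips were not cultured, although their labels, like those of the cultures, give day 28 and name cultured cells as the source. No source used here gives the age or sex of the animals, the part of the intestine or the number of animals behind a library. The series text calls the replicates biologically independent. The comparison asks how far the culture resembled the tissue it was made from. Wild-type cells kept for 28 days in the same M medium on a well plate (3 libraries) are set beside some results, and a further 3 libraries, from cells in the proliferation medium P with serum on a well plate, only entered the fit of the model.

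The muscle layers of the gut hold visceral smooth muscle cells, which contract through actin and smooth muscle myosin. The interstitial cells of Cajal set the pace of that contraction, and neurons and glia of the myenteric plexus control it. Fibroblast-like cells, blood and lymph vessels, resident macrophages and a mesothelial covering share the same tissue. Smooth muscle cells taken into culture are known to lower their contractile proteins and to raise matrix and growth genes, a change termed phenotypic modulation. The transcription factor SRF with its partner myocardin drives the contractile genes by binding the CArG box, and the same factor with other partners drives immediate early genes.

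Gene counts per library ranged from 32477783 to 116643512 on the scaffold and from 21396485 to 76361847 in the strips, and levels are given in CPM, the count of a gene scaled to library size with TMM factors. Over the 3 libraries of a group, a count of 0 allowed up to 0.0171 CPM on the scaffold and 0.0204 CPM in the strips, counting 3 reads as the limit, and such limits cover counting error only. Mitochondrially encoded genes took 1.24% to 1.55% of counts on the scaffold and 2.22% to 3.76% in the strips. The correlation of log2 CPM between libraries, taken across genes that are no independent replicates, was 0.973 to 0.983 within the scaffold group, 0.980 to 0.991 within the strips and 0.841 to 0.882 between them. Scaffold replicate 2 had the lowest summed CPM of contractile genes and the highest of chemokine genes in its group, replicate 3 had the lowest of endothelial genes and the highest of glycolysis genes, and strips replicate 2 had the highest of intestinal epithelial genes. These libraries are named beside the results they touch.

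The difference between culture and tissue was broad. Of 17700 genes tested with edgeR's quasi-likelihood test, 4344 were higher on the scaffold (24.5%) and 4884 were lower (27.6%) at an adjusted p under 0.05, together 52.1%, and 8472 did not pass. The median log2 fold change over all tested genes was -0.02. The results are ordered by 50 lists of 969 genes of cell types and processes, of which 925 had enough counts to be tested. The log2 fold changes below are scaffold against strips with their standard error (SE), unless the plate is named. Every count of genes of a list called against the strips is to be read against these 24.5% and 27.6%. Set against the same medium on the plate, 271 genes were higher on the scaffold (1.53%) and 291 were lower (1.64%), together 3.18% of the same 17700. Leaving out any 1 of these 6 libraries left between 7 and 225 higher and between 11 and 131 lower, fewest without plate replicate 2, so the calls against the plate rest on the full set of libraries.

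**Figure D1:**
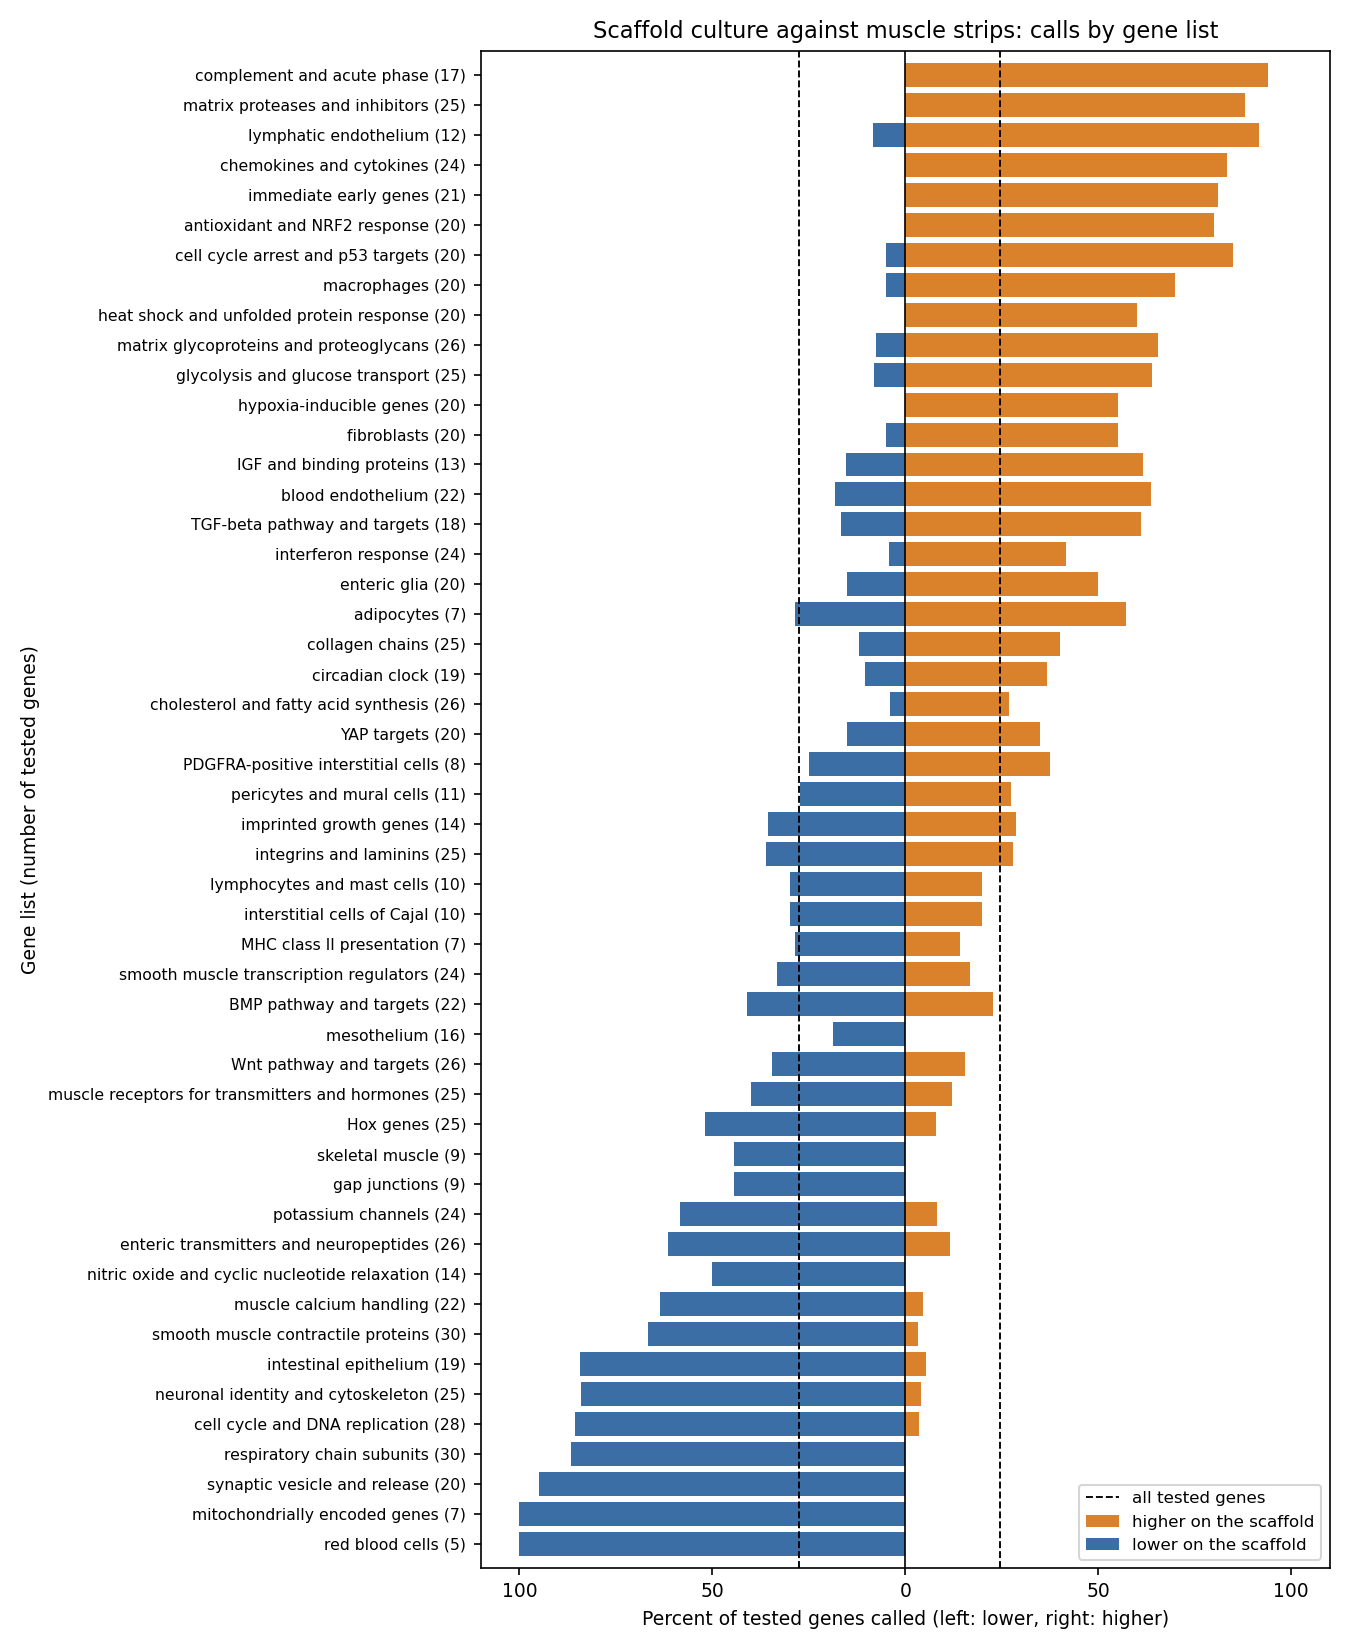
Percent of the tested genes of each of 50 gene lists that were called higher (right, orange) or lower (left, blue) on the scaffold than in the strips (horizontal axis, percent of tested genes), with the number of tested genes after each list name (vertical axis). The dashed lines mark the share of all 17700 tested genes called in that direction, 24.5% higher and 27.6% lower. The lists of complement and acute phase proteins, lymphatic endothelium and matrix proteases reach farthest to the right, and those of red blood cells, mitochondrially encoded genes and synaptic vesicles farthest to the left.

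Among the genes with the largest rises were secreted proteins of the acute phase and of matrix turnover. The rule for the largest rises and falls took only genes whose libraries did not overlap, so their lack of overlap is no result. Saa3, a serum amyloid A protein of the acute phase (ENSMUSG00000040026, chromosome 7, 46711998 to 46715700, minus strand, on the build GRCm38), stood at 6593, 13216 and 8874 CPM in scaffold replicates 1 to 3 and at 6.38, 6.71 and 5.60 CPM in strips replicates 1 to 3. The log2 fold change was 10.59 ± 0.74 (adjusted p = 1.02e-05). A2m, the protease inhibitor alpha-2-macroglobulin (ENSMUSG00000030111, chromosome 6, 121635376 to 121679227, plus strand), stood at 761, 1100.1 and 1401 CPM against 0.931, 1.21 and 1.26 CPM, a rise of 9.89 ± 0.38 (adjusted p = 9.94e-07). Gpnmb, a membrane glycoprotein of phagocytes with loaded lysosomes (ENSMUSG00000029816, chromosome 6, 49036546 to 49070929, plus strand), stood at 1067, 823 and 1333 CPM against 1.10, 0.959 and 1.17 CPM. Gpnmb rose by 9.95 ± 0.92 (adjusted p = 3.57e-05). Hp, the haemoglobin-binding acute phase protein haptoglobin, rose by 9.95 ± 0.75, with replicate 1 lowest on the scaffold at 194 CPM against at most 0.602 CPM in the strips. Serpind1, the thrombin inhibitor heparin cofactor II, rose by 9.97 ± 1.62, from at most 0.167 CPM to at least 28.8 CPM, and by 9.01 to 10.91 without strips replicate 3 or 2. Serpina3i, a serine protease inhibitor, had no count in any strip and 10.7, 38.1 and 18.4 CPM on the scaffold. It was at least 1096-fold higher (712-fold without scaffold replicate 2). It has close paralogs, and reads that align to several places may be missing from its count. Further genes with the largest rises, by the rule for named genes, were Cxcl5, Mmp3, Mmp12, Tnfsf8, Akr1c18, Cxcl1, Lcn2 and Hsd11b1, with log2 fold changes between 8.39 for Hsd11b1 and 11.13 for Cxcl5, a neutrophil chemokine. Hsd11b1, which regenerates active glucocorticoid, stood at 19.3, 43.9 and 353 CPM against 0.548, 0.334 and 0.359 CPM. Scaffold replicate 3 was far above the other libraries, and without it the log2 fold change was 6.26. That of Akr1c18 was 9.10, 7.64 without scaffold replicate 3 and 11.11 without strips replicate 3.

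The largest falls were mostly those of genes of another tissue layer. Among the 15 genes with the largest falls, Alpi, Cdhr5, Cdhr2, Apoa4, Fabp1, Clca4b, Fabp2, Apoa1, Pck1, Apob, Apoc3 and Meltf are known from the absorptive epithelium of the gut or from lipid and sugar handling there, and Nmu and Ren1 were also among them. Alpi, the intestinal alkaline phosphatase of the enterocyte brush border, had no count on the scaffold and stood at 14.9, 225 and 23.0 CPM in the strips, so it was at least 5135-fold lower over the group. Strips replicate 2 was far above the other strips, and without it the bound was 1109.9-fold. Those of these epithelial genes that had a count on the scaffold fell by between 10.53 (Meltf) and 13.94 (Apoa4), and by between 8.56 (Apoc3) and 11.63 (Apoa4) without strips replicate 2. Ren1, the protease renin that starts the angiotensin cascade (ENSMUSG00000070645, chromosome 1, 133350510 to 133360325, plus strand), was even among the strips: it stood at 70.4, 81.6 and 59.7 CPM in the strips and at 0.0307, 0.124 and 0.0451 CPM on the scaffold. The 3 strips lay close together, and Ren1 fell by 10.16 ± 0.46 on the log2 scale (adjusted p = 1.72e-06). The plate cultures were also low, at 0.0573, 0.0254 and 0.0944 CPM.

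Smooth muscle contractile proteins were lower on the scaffold as a group, but the size of the fall differed from gene to gene and from library to library. Of 30 tested genes 20 fell, 1 rose and 9 did not pass. The median log2 fold change was -1.45 against -0.02 over all genes. Their summed level was 29909.6, 13832 and 23299 CPM in scaffold replicates 1 to 3 and 72076, 74408 and 73717 CPM in the strips. Without scaffold replicate 2, the lowest of them, 16 genes were lower and the median was -1.21. The high levels in every strip match the tissue named in the labels. In these bulk samples, fewer cells of a type and less RNA per cell cannot be told apart.

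Acta2, the alpha actin of smooth muscle (ENSMUSG00000035783, chromosome 19, 34241090 to 34255590, minus strand), stood at 2369, 1116 and 1840.1 CPM on the scaffold and at 9621, 9534 and 9502 CPM in the strips. The strips were nearly equal and the scaffold libraries were all lower, and Acta2 fell by 2.43 ± 0.38 on the log2 scale (adjusted p = 0.000551). Myh11, the smooth muscle myosin heavy chain (ENSMUSG00000018830, chromosome 16, 14194535 to 14291372, minus strand), stood at 2471, 832 and 1703 CPM against 11159.9, 12964 and 11499.8 CPM and fell by 2.83 ± 0.50 (adjusted p = 0.00109). Actg2, the gamma actin that prevails in gut muscle (ENSMUSG00000059430, chromosome 6, 83512905 to 83536265, minus strand), stood at 1855, 305 and 1763 CPM against 7049, 6741 and 7386 CPM. Scaffold replicate 2 was far below the other scaffold libraries here, and the fall of 2.43 ± 0.70 had an adjusted p of 0.014. Pcp4, a small calmodulin regulator, had the strongest fall of the list, from 121, 109 and 118 CPM in the strips to 4.58, 1.49 and 6.51 CPM on the scaffold, -4.77 ± 0.53 on the log2 scale (adjusted p = 8.46e-05). Myl6, the essential light chain of myosin, fell by 1.48 ± 0.20, and Mustn1, a small muscle protein, fell by 1.92 ± 0.29.

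Other genes of the apparatus did not pass, fell by about as much as Myl6, or rose. Des, the intermediate filament protein desmin, stood at 2059, 486 and 1898 CPM on the scaffold and 3182, 3238 and 3342 CPM in the strips. Replicate 2 was far below replicates 1 and 3, all 3 were below the strips, and the log2 fold change of -1.14 ± 0.52 did not pass (adjusted p = 0.0918). Cnn1, the actin-binding protein calponin, also had replicate 2 lowest, at 981, 261 and 864 CPM against 1503, 1390.4 and 1517 CPM. It did not pass either (-1.07 ± 0.47, adjusted p = 0.0766). Both Des and Cnn1 were called lower with DESeq2 (adjusted p = 0.0466 and 0.0418), and Cnn1 with the replicate block in 12 libraries (adjusted p = 0.00906). Cald1, the actin-binding protein caldesmon, had a log2 fold change of -0.40 ± 0.21 (adjusted p = 0.124). Tagln, the actin cross-linker transgelin, fell by 1.41 ± 0.41 (adjusted p = 0.0157), but other genes' exons cover 67.9% of its exons and no source used here gives the strand setting of the counting, so its reads are uncertain. Vcl, the adhesion plaque protein vinculin, was the 1 member that rose: it stood at 552, 712 and 394 CPM on the scaffold and 216, 255 and 262 CPM in the strips, with no overlap, a log2 fold change of 1.18 ± 0.29 (adjusted p = 0.00665).

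**Figure D2:**
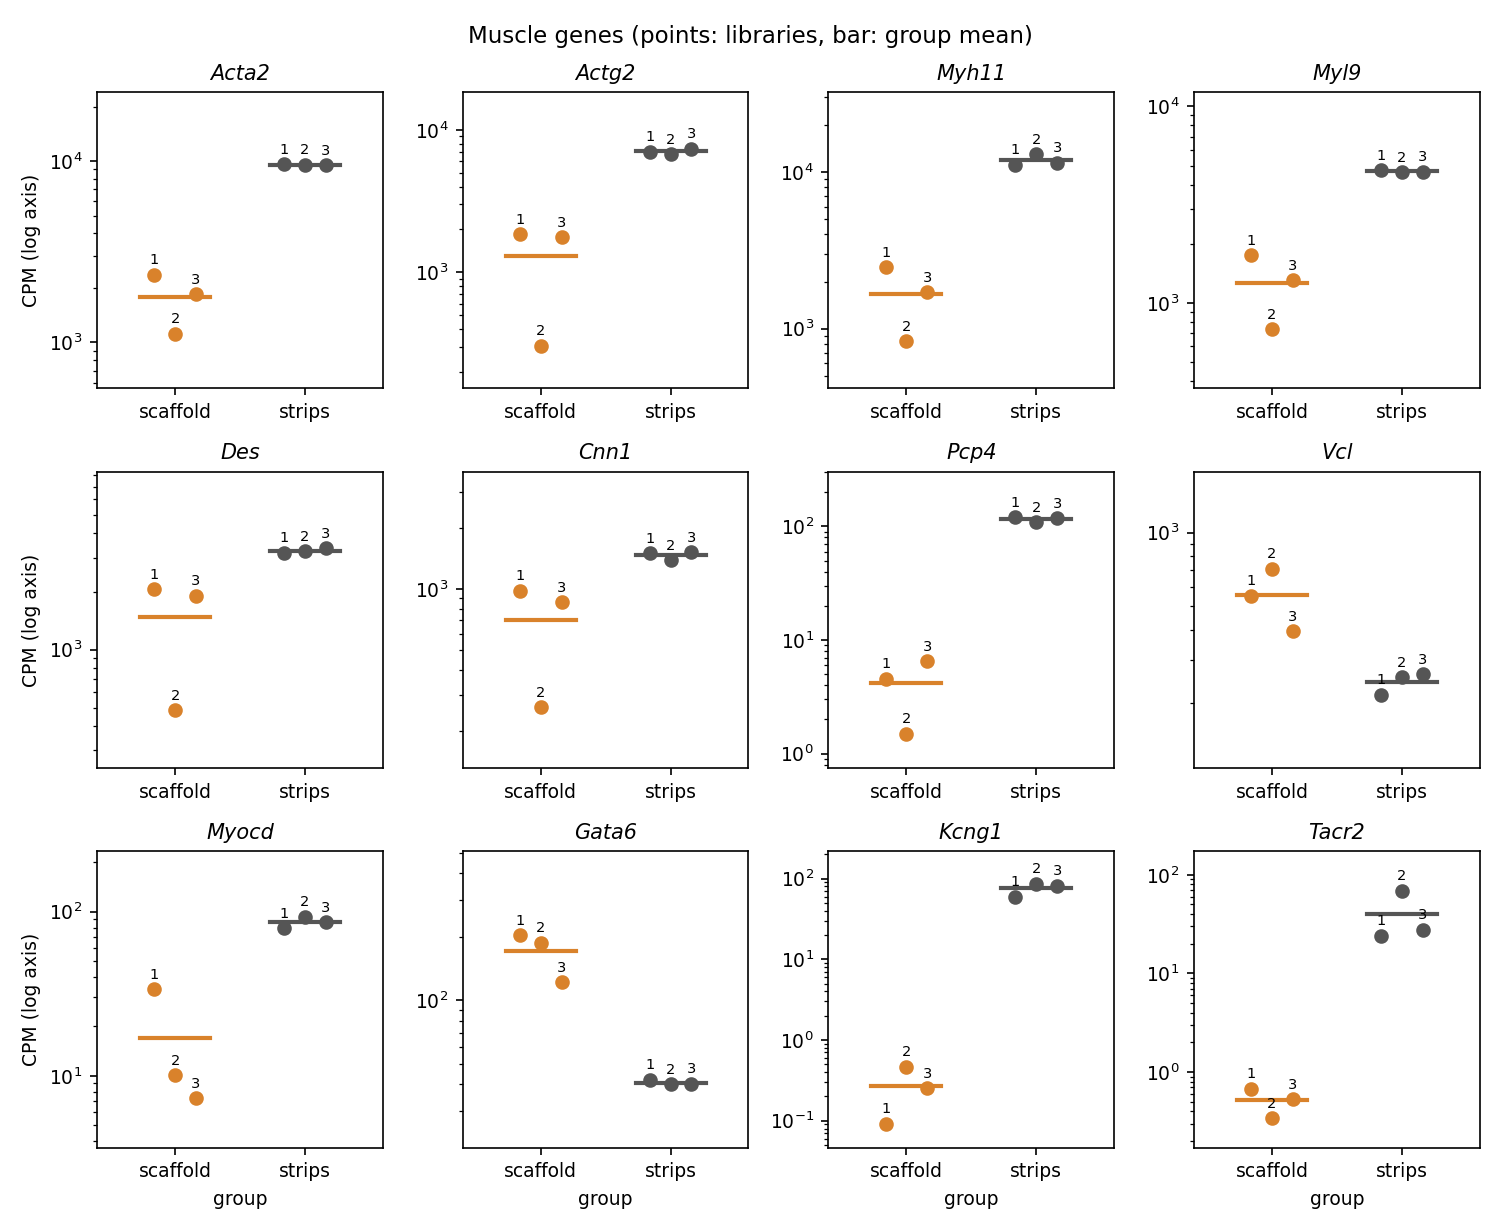
CPM of 12 muscle genes (log axis, vertical) in the 3 scaffold libraries (orange) and the 3 strips (grey), 1 point per library labelled with its replicate number, with a bar at the group mean. Scaffold replicate 2 is the lowest point for Actg2, Des and Cnn1, and Vcl and Gata6 are higher on the scaffold than in the strips.

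Among the transcription regulators of smooth muscle, 8 of 24 fell, 4 rose and 12 did not pass (median -0.17). Myocd, myocardin, the partner of SRF at contractile genes, stood at 33.8, 10.1 and 7.28 CPM on the scaffold and 79.3, 93.1 and 86.2 CPM in the strips. It was lower in all scaffold libraries and fell by 2.34 ± 0.65 (adjusted p = 0.0115), or by 3.31 without scaffold replicate 1. Srf itself fell by 0.87 ± 0.20, from 227, 251 and 273 CPM to 158, 139.8 and 113 CPM. Mrtfb, a myocardin-related cofactor that answers to actin dynamics, rose by 0.90 ± 0.12, and Gata6, a zinc finger factor named from this list after its values were seen, rose by 2.07 ± 0.50. Elk3, an SRF partner of the ternary complex factor family, rose by 2.23 ± 0.26 (adjusted p = 0.000121), from 29.8, 32.4 and 38.7 CPM to 209, 168 and 95.7 CPM. The forkhead and helix-loop-helix factors of gut mesenchyme went the other way: Foxf2 fell by 2.69 ± 0.32, Foxf1 by 1.44 ± 0.21 and Hand1 by 2.44 ± 0.44.

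Promoters of the contractile genes were searched for the CArG box on both strands of the 250 bases before each RefSeq start site (table build GRCm38.p6). The search took only the exact form CCWWWWWWGG, where W is A or T. Boxes that depart from this form or lie farther away were not searched, so a gene without a match may still have one. The motif was found in 4 of the 26 contractile genes with a window (15.4%), Myl6, Myl9, Vcl and Ldb3, against 439 of 27025 genes (1.62%). The windows of Myl9 (chr2:156775283-156775382, plus strand) and Vcl (chr14:20929151-20929250, plus strand) are shown because both hold the motif, in capitals, and the RNA of the genes moved in opposite directions. The capitals begin 161 bases before the start of Myl9 and 227 bases before that of Vcl.
Myl9: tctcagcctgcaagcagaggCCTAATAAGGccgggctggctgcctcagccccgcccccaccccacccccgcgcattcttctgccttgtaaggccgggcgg
Vcl: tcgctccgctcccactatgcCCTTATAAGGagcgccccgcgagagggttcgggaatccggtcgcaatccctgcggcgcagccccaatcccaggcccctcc
A match is a description of the letters and not a site. Myl9, the regulatory light chain of myosin, picked for its motif after its values were seen, stood at 1754, 734 and 1301 CPM on the scaffold and 4737, 4621 and 4653 CPM in the strips and fell by 1.89 ± 0.35 (adjusted p = 0.00137), whereas Vcl rose. Ldb3, a Z-disc protein, did not pass at -1.02 ± 0.48 (adjusted p = 0.098), but it was called lower without scaffold replicate 1 (-1.87, adjusted p = 0.00289).

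Genes of excitation were lower in most of the families. In calcium handling 14 of 22 genes fell and 1 rose (median -1.27). Ryr3, a calcium release channel of the internal store, fell by 2.88 ± 0.36, Atp2b4, a calcium pump of the plasma membrane, fell by 2.15 ± 0.30, and Casq1, a calcium-binding protein of the store, fell by 3.67 ± 0.57 (4.37 without scaffold replicate 1). Itpr1, the inositol trisphosphate receptor, stood at 172, 153 and 96.7 CPM on the scaffold and 134, 151 and 134 CPM in the strips, and the groups overlapped. Atp2a2, the main calcium pump of the store, had a log2 fold change of -0.24 ± 0.17 (adjusted p = 0.241).

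Of 24 potassium channel genes 14 fell and 2 rose (median -1.63), and 4 rose with the 6 compared libraries alone. Kcng1, a modifier subunit of voltage-gated channels (ENSMUSG00000074575, chromosome 2, 168260117 to 168281736, minus strand), stood at 59.6, 86.8 and 81.7 CPM in the strips and at 0.0922, 0.466 and 0.253 CPM on the scaffold. It was close to absent in all scaffold libraries and fell by 8.14 ± 0.48 on the log2 scale (adjusted p = 6.87e-06). Kcnma1, the large-conductance calcium-activated channel that opposes contraction, fell by 1.48 ± 0.23, from 106, 126 and 120.4 CPM to 40.3, 35.2 and 50.4 CPM. It was higher on the scaffold than on the plate by 1.23 ± 0.23 (adjusted p = 0.029). Kcnj8 and Abcc9, which form an ATP-sensitive channel, had log2 fold changes of 0.14 ± 0.35 and -0.05 ± 0.34 against the strips and did not pass. Kcnj8 stood at 298, 209 and 226 CPM on the scaffold, 225, 229 and 210.5 CPM in the strips and 61.5, 51.7 and 70.3 CPM on the plate.

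Of the receptors through which nerves and hormones act on the muscle, 10 of 25 fell and 3 rose (median -0.73). Without strips replicate 1 the number that rose was 1. With DESeq2 it was 5. The tachykinin receptor gene Tacr2 fell by 6.27 ± 0.64 (5.65 without strips replicate 2), and Tacr3 fell by 5.97 ± 0.59. Tacr2 stood at 24.2, 69.0 and 27.7 CPM in the strips and under 1 CPM in each scaffold library, at 0.676, 0.342 and 0.532 CPM. Adrb3, a relaxing adrenergic receptor, fell by 2.09 ± 0.30. The muscarinic receptors of acetylcholine did not pass: Chrm2 stood at 169, 109 and 45.7 CPM against 223, 283 and 273 CPM (adjusted p = 0.052) and Chrm3 at 17.9, 15.03 and 5.80 CPM against 9.34, 12.5 and 9.05 CPM (adjusted p = 0.449). Without scaffold replicate 1, Chrm2 was called lower (-1.74, adjusted p = 0.0229), and without scaffold replicate 3, the lowest library for both, Chrm3 was called higher (0.69, adjusted p = 0.0242). P2rx4, an ATP-gated channel that macrophages also carry, rose by 2.32 ± 0.38.

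In the nitric oxide and cyclic nucleotide list 7 of 14 genes fell and 0 rose (median -0.51), of which 4 were lower without scaffold replicate 3 and 4 without strips replicate 2. Pde9a, a phosphodiesterase that breaks down cyclic GMP, fell by 2.87 ± 0.28 (adjusted p = 4.3e-05). Both subunits of the nitric oxide receptor, Gucy1a1 and Gucy1b1, did not pass, with 195, 346 and 93.0 CPM on the scaffold and 151, 158 and 173 CPM in the strips for Gucy1a1. Scaffold replicate 3 lay below the strips and replicates 1 and 2 above them.

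Of 9 tested connexin and pannexin genes, of which the connexins couple cells electrically, 4 fell and 0 rose. Gja1, the connexin 43 gene, stood at 278, 142 and 129.8 CPM on the scaffold and 288, 431 and 359 CPM in the strips, and did not pass (-0.97 ± 0.39, adjusted p = 0.0556). Without scaffold replicate 1 it was called lower (-1.40, adjusted p = 0.0157). Gjc1, connexin 45, fell by 1.01 ± 0.21 (adjusted p = 0.00233). Of 9 tested genes of skeletal muscle 4 fell and 0 rose, and Ckm, a creatine kinase that smooth muscle also carries, fell by 2.14 ± 0.47.

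Of 10 markers of the interstitial cells of Cajal 3 fell (30%) and 2 rose (20%), near the 27.6% and 24.5% of all genes tested. Without scaffold replicate 1, 5 were lower, and with the 6 compared libraries, DESeq2 or limma-voom 5 were. Kit, the receptor tyrosine kinase that these cells need (ENSMUSG00000005672, chromosome 5, 75574916 to 75656722, plus strand), stood at 49.7, 38.7 and 7.41 CPM on the scaffold and 108, 142 and 139.6 CPM in the strips. Scaffold replicate 3 was well below replicates 1 and 2, all 3 were below the strips, and Kit fell by 2.03 ± 0.52 (adjusted p = 0.00825). Ano1, the calcium-activated chloride channel of the pacemaker current (ENSMUSG00000031075, chromosome 7, 144588549 to 144751974, minus strand), stood at 67.8, 80.0 and 50.5 CPM against 217, 272 and 263 CPM and fell by 1.93 ± 0.21 (adjusted p = 7.2e-05). It was higher on the scaffold than on the plate, where it stood at 32.4, 32.1 and 29.7 CPM, by 1.07 ± 0.20 (adjusted p = 0.0289). Etv1, a transcription factor of these cells, had a log2 fold change of -1.52 ± 0.69 (adjusted p = 0.0869). Adgrd1, an adhesion receptor, rose by 2.61 ± 0.30.

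The neighbouring PDGFRA-positive cells, which carry purinergic inhibition, are marked by the receptor gene Pdgfra (ENSMUSG00000029231, chromosome 5, 75152292 to 75198215, plus strand), also a fibroblast gene. It stood at 1139.8, 2262 and 996 CPM on the scaffold and 106, 105 and 127 CPM in the strips, with replicate 2 highest. Pdgfra rose by 3.70 ± 0.51 (adjusted p = 0.00026). Kcnn3, the small-conductance potassium channel through which these cells relax the muscle, did not pass (-1.57 ± 0.96, adjusted p = 0.19), and stood at 47.1, 21.2 and 12.6 CPM against 71.5, 76.3 and 92.1 CPM. Of the 8 genes in the list 3 rose and 2 fell.

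Most genes of enteric neurons were lower on the scaffold. Of 25 genes of neuronal identity and cytoskeleton 21 fell and 1 rose (median -2.64), of 20 synaptic genes 19 fell and 0 rose (median -1.75), and of 26 genes of transmitters 16 fell and 3 rose (median -2.78). Elavl4, the RNA-binding protein HuD of neuron cell bodies (ENSMUSG00000028546, chromosome 4, 110203722 to 110351909, minus strand), stood at 17.6, 18.3 and 17.2 CPM on the scaffold and at 91.5, 98.9 and 131 CPM in the strips. The scaffold libraries were nearly equal, none overlapped the strips, and Elavl4 fell by 2.598 ± 0.34 (adjusted p = 0.000204). Nefl, a neurofilament subunit of axons, went from 35.6, 28.4 and 40.8 CPM to 0.614, 0.994 and 0.55 CPM and fell by 5.63 ± 0.42, with other genes' exons over 32.8% of its exons. Dcx, a microtubule protein of young neurons, fell by 4.48 ± 0.37, Ina, an intermediate filament of neurons, by 3.04 ± 0.29, and the vesicle calcium sensor gene Syt1 by 2.85 ± 0.24. Chgb, a protein of dense-core vesicles, fell by 3.20 ± 0.31.

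Tubb3, a neuronal tubulin, did not pass: it stood at 70.5, 91.1 and 109 CPM on the scaffold and 166, 148 and 226 CPM in the strips, with a log2 fold change of -0.998 ± 0.54 (adjusted p = 0.146). Gap43, a protein of growing nerve endings that Schwann-like glia also make, was the member of the identity list that rose. It stood at 243, 304 and 416 CPM on the scaffold and 120.1, 98.2 and 141 CPM in the strips, with no overlap, a rise of 1.42 ± 0.26 (adjusted p = 0.00142). On the plate it stood at 114, 116 and 126 CPM, below the scaffold by a log2 difference of 1.44 ± 0.26 (adjusted p = 0.0268).

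The transmitter genes did not move together. Chat, the enzyme that makes acetylcholine (ENSMUSG00000021919, chromosome 14, 32408203 to 32465989, minus strand), stood at 1.20, 1.12 and 0.541 CPM on the scaffold and 5.34, 5.71 and 7.22 CPM in the strips and fell by 2.70 ± 0.36 (adjusted p = 0.000463). Tac1, the precursor of substance P, fell by 4.11 ± 0.41, from 89.6, 43.8 and 80.1 CPM to 6.21, 3.23 and 2.98 CPM. Nos1, the nitric oxide synthase of inhibitory motor neurons (ENSMUSG00000029361, chromosome 5, 117781032 to 117958840, plus strand), stood at 168, 112 and 239 CPM on the scaffold and 166, 226 and 278 CPM in the strips. These groups overlapped, and the log2 fold change of -0.37 ± 0.41 did not pass (adjusted p = 0.464). Vip, the relaxing peptide that the same neurons release, did not pass either, at 109, 68.5 and 118 CPM against 132, 135 and 142 CPM (-0.47 ± 0.67, adjusted p = 0.582). Gad2, an enzyme that makes GABA, and Calca, the precursor of calcitonin and CGRP, rose by 5.45 ± 0.61 and 3.78 ± 0.63 (Gad2 by 6.19 without strips replicate 1, Calca by 3.07 without scaffold replicate 3). Nmu, the peptide neuromedin U, had no count on the scaffold and stood at 21.9, 16.1 and 23.8 CPM in the strips, so it was at least 1207-fold lower. Grp, the gastrin-releasing peptide, fell by 5.08 ± 0.47 (5.72 without scaffold replicate 1) and was higher on the scaffold than on the plate by 2.71 ± 0.54 (adjusted p = 0.0321).

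Ratios to the counts of Elavl4 within each library were chosen after the values were seen, so they are a description with no test. Nos1 had 9.55, 6.11 and 13.9 counts for each count of Elavl4 on the scaffold and 1.82, 2.29 and 2.12 in the strips. Vip had 6.21, 3.74 and 6.89 on the scaffold and 1.44, 1.37 and 1.08 in the strips. For both genes every scaffold library was above every strip, with Elavl4, which itself fell, as the reference. With Tubb3 as the reference this order did not hold. Scaffold replicate 2 had 3596 counts of Nos1, 2204 of Vip and 2934 of Tubb3. Strips replicate 2 had 5425, 3238 and 3544. The ratio of Chat was 0.0682, 0.0611 and 0.0315 on the scaffold and 0.0583, 0.0578 and 0.0553 in the strips, and overlapped. The ratio of Tac1, at 0.353, 0.177 and 0.173 against 0.978, 0.443 and 0.612, was lower in every scaffold library than in every strip. These ratios are per gene and not per length, so they compare groups and not the genes with one another.

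**Figure D3:**
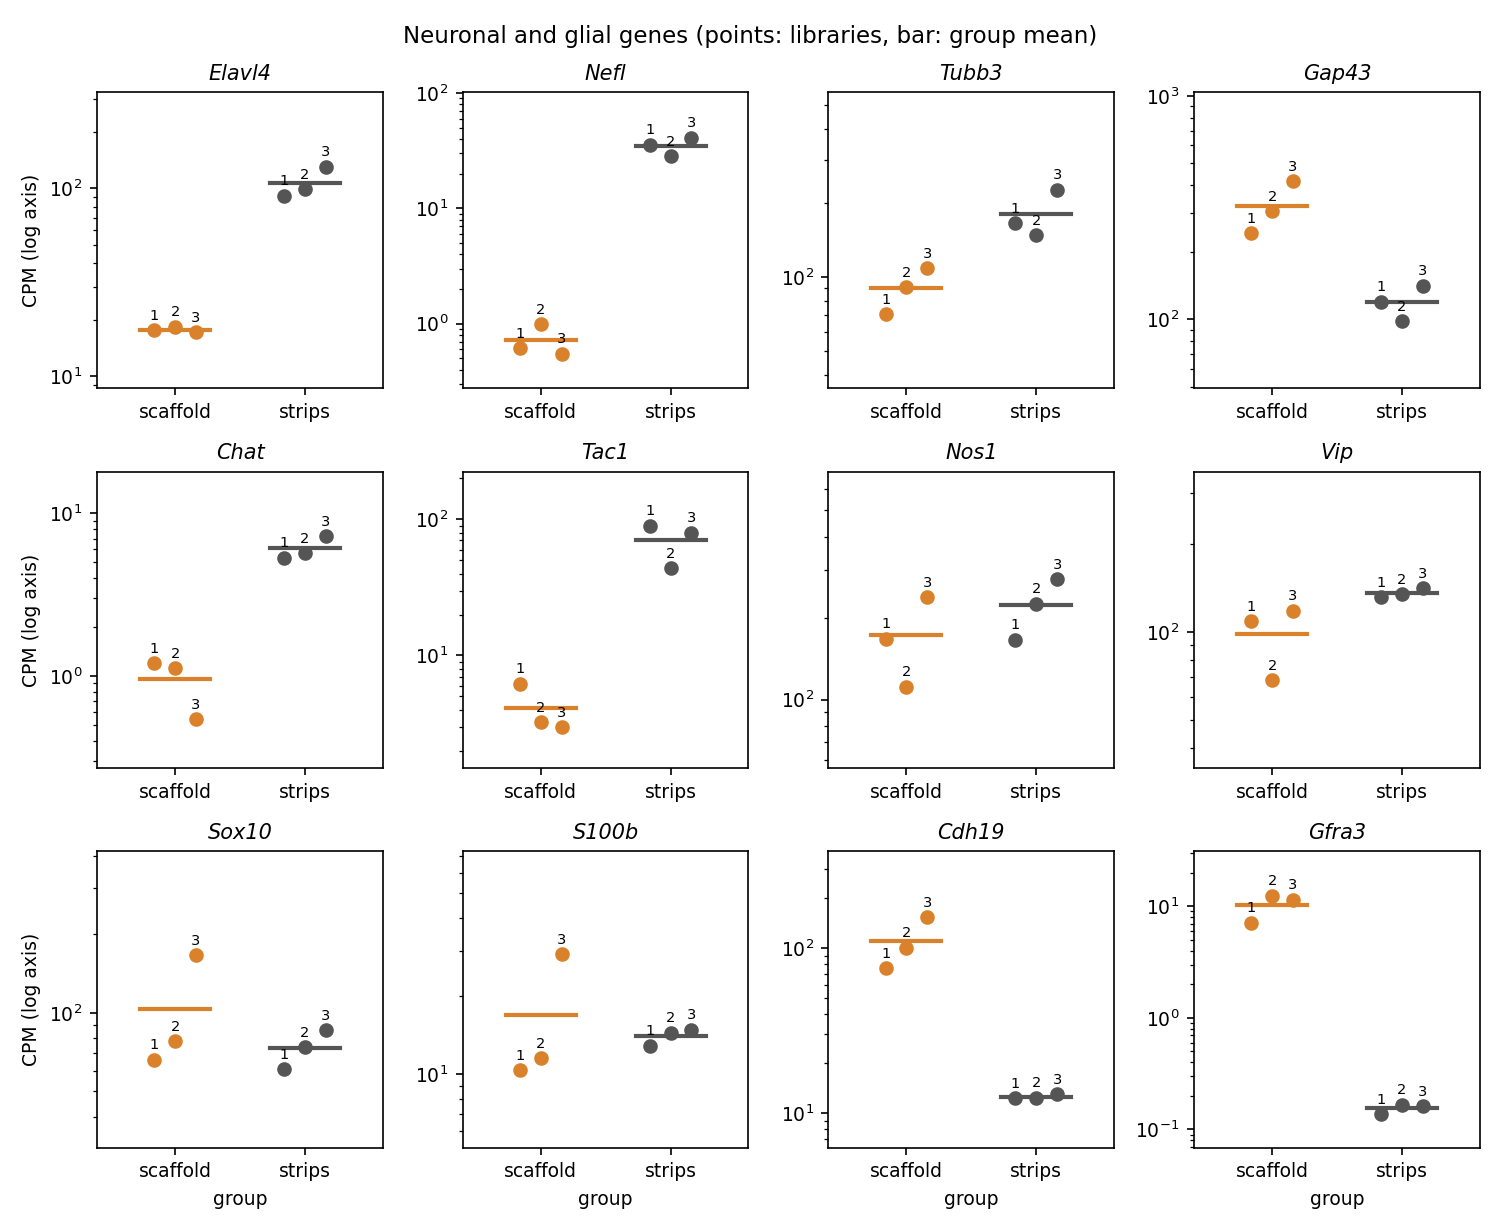
CPM of 12 genes of neurons and glia (log axis, vertical) in the 3 scaffold libraries (orange) and the 3 strips (grey), 1 point per library labelled with its replicate number, with a bar at the group mean. Elavl4, Nefl, Chat and Tac1 are lower in all scaffold libraries, Nos1 and Sox10 overlap, and Gap43, Cdh19 and Gfra3 are higher in all scaffold libraries.

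Glial genes rose more often than they fell. Of 20 genes of the enteric glia list 10 rose, 3 fell and 7 did not pass (median 0.91). Cdh19, a cadherin of the glial and Schwann lineage (ENSMUSG00000047216, chromosome 1, 110888326 to 110977584, minus strand), stood at 75.4, 100.4 and 154 CPM on the scaffold and 12.3, 12.4 and 13.0 CPM in the strips. Replicate 3 was highest, all scaffold libraries were above the strips, and Cdh19 rose by 3.13 ± 0.30 (adjusted p = 3.86e-05). Gfra3, the receptor of artemin, went from 0.137, 0.167 and 0.162 CPM to 7.13, 12.4 and 11.4 CPM, a rise of 6.03 ± 0.34 (adjusted p = 5.35e-06). Entpd2, the ectoenzyme that degrades ATP at glia, rose by 2.18 ± 0.38. The canonical markers did not pass: Sox10, the lineage factor, stood at 66.1, 77.9 and 166 CPM against 60.8, 73.6 and 85.6 CPM (adjusted p = 0.294). S100b, a calcium-binding protein, stood at 10.4, 11.5 and 29.1 CPM against 12.9, 14.4 and 14.8 CPM, and Gfap, the glial filament protein, at 5.87, 6.03 and 15.9 CPM against 5.37, 7.09 and 5.74 CPM. In both, scaffold replicate 3 was above every strip and the other scaffold libraries were near or within their range. S100b and Cdh19 were higher on the scaffold than on the plate by 1.70 ± 0.37 and 1.52 ± 0.28 (adjusted p = 0.0421 and 0.026). In that comparison 7 of the 20 genes of the list were called higher and 0 lower, against 1.53% and 1.64% of all genes tested. The summed level of the list overlapped, at 3054, 4389 and 4440 CPM on the scaffold and 3982, 3211 and 4294 CPM on the plate. Calls against the plate were not stable when single libraries were left out. Fabp7, a fatty acid binding protein of immature glia, fell by 3.74 ± 0.54.

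Most genes of lymph vessels, and many of blood vessels, were higher on the scaffold, most so in replicates 1 and 2. In the lymphatic list 11 of 12 genes rose and 1 fell (median 4.16), and the summed level was 2341, 1739 and 419 CPM on the scaffold and 104, 85.9 and 139.9 CPM in the strips. Prox1, the factor that sets lymphatic identity (ENSMUSG00000010175, chromosome 1, 190118035 to 190170714, minus strand), stood at 155, 77.4 and 15.1 CPM on the scaffold and 3.07, 4.09 and 7.20 CPM in the strips. Replicate 3 was the lowest scaffold library and still above the strips, and Prox1 rose by 4.09 ± 0.68 (adjusted p = 0.000791), or by 3.25 without scaffold replicate 1. Lyve1, the hyaluronan receptor of lymph vessels and some macrophages, stood at 803, 680.0 and 96.3 CPM against 13.0, 10.1 and 13.1 CPM, a rise of 5.45 ± 0.88 (adjusted p = 0.000651). Reln, a secreted glycoprotein of lymphatic endothelium, rose by 4.47 ± 0.44 and was lower on the scaffold than on the plate by a log2 difference of -2.23 ± 0.39 (adjusted p = 0.0243). Pdpn, a membrane mucin of lymphatic endothelium and of fibroblasts, rose by 1.77 ± 0.19. Without scaffold replicate 3 the median of the list was 4.65 and without replicate 1 it was 3.44.

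In the blood endothelium list 14 of 22 genes rose and 4 fell (median 1.95), with 8 higher without scaffold replicate 1, 8 without strips replicate 2 and 9 with the replicate block in the 6 compared libraries. Cdh5, the cadherin of endothelial junctions (ENSMUSG00000031871, chromosome 8, 104101625 to 104144511, plus strand), stood at 385, 243 and 56.9 CPM on the scaffold and 21.1, 26.5 and 44.8 CPM in the strips and rose by 2.89 ± 0.56 (adjusted p = 0.00168), or by 2.28 without scaffold replicate 1. Pecam1, an adhesion molecule of the same junctions, stood at 235, 175 and 37.0 CPM against 23.3, 25.4 and 45.5 CPM. Scaffold replicate 3 lay within the range of the strips, and the rise of 2.24 ± 0.64 (adjusted p = 0.0142) did not pass without scaffold replicate 1 (adjusted p = 0.0526), strips replicate 1 (0.0607) or strips replicate 2 (0.054). Flt1, a VEGF receptor, rose by 4.43 ± 0.62, with replicate 3 highest at 112 CPM, in an order opposite to that of Cdh5. Plvap, the diaphragm protein of fenestrated capillaries, fell by 1.66 ± 0.42 and Emcn, a sialomucin of capillaries and veins, by 2.09 ± 0.48, or by 2.27 and 2.79 without scaffold replicate 2. Gja4, a connexin of arteries and lymph vessels from the lists of gap junctions and of lymphatic endothelium, fell by 4.07 ± 0.57 (3.40 without strips replicate 3). These 3 were also lower on the scaffold than on the plate, by log2 differences of -3.35 ± 0.45, -2.64 ± 0.49 and -4.85 ± 0.59 (adjusted p = 0.00969, 0.0276 and 0.00896).

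Genes of the pericyte list moved both ways. Rgs5, a G protein regulator of pericytes and visceral muscle, fell by 2.79 ± 0.46, from 1256, 1393 and 1169 CPM to 284, 87.8 and 179 CPM. Pdgfrb, the PDGF receptor of pericytes and fibroblasts, rose from 18.8, 19.9 and 26.0 CPM to 305, 363 and 388 CPM, 4.02 ± 0.23 on the log2 scale (adjusted p = 5.35e-06). Of 11 tested genes 3 rose and 3 fell (27.3% each), near the 24.5% and 27.6% of all genes tested, and 5 did not pass. In the fibroblast list 11 of 20 rose and 1 fell (median 0.74). Lum, the collagen-binding proteoglycan lumican, stood at 2278, 4106 and 2208 CPM on the scaffold and 219, 144 and 196 CPM in the strips and rose by 3.94 ± 0.53 (adjusted p = 0.000247). Dcn, decorin, a proteoglycan of the same family, rose by 1.95 ± 0.30. Cd34, a sialomucin of resting interstitial fibroblasts and vessels, was the member that fell, by 1.29 ± 0.29.

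Of 16 mesothelial genes 3 fell and 0 rose (median -0.71). The count depended on the libraries in the fit: with the 6 compared libraries alone 8 were lower and 3 higher. Msln, mesothelin (ENSMUSG00000063011, chromosome 17, 25748613 to 25754378, minus strand), stood at 149, 179.6 and 159.6 CPM on the scaffold and 1025, 1212 and 866 CPM in the strips and fell by 2.67 ± 0.78 (adjusted p = 0.0156). Krt19, a keratin that epithelium also makes, fell by 2.46 ± 0.28 (adjusted p = 0.000103). Other genes of the same cells did not pass in the fit of 12 libraries but did in that of 6: Upk3b stood at 546, 695 and 381 CPM against 969.5, 927 and 874 CPM, and Wt1, a factor of mesothelium, at 158, 152 and 128 CPM against 105, 89.9 and 90.6 CPM (adjusted p = 0.262 and 0.163 with 12 libraries, 0.0259 and 0.00523 with 6).

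Genes of macrophages were higher on the scaffold. Of 20 genes 14 rose, 1 fell and 5 did not pass (median 3.78). Cd68, a lysosomal protein of phagocytes (ENSMUSG00000018774, chromosome 11, 69664213 to 69666153, minus strand), stood at 178, 115 and 235 CPM on the scaffold and 5.72, 4.55 and 5.40 CPM in the strips. No library overlapped, and Cd68 rose by 5.07 ± 0.71 (adjusted p = 0.000303). Trem2, a lipid-sensing receptor, rose by 5.16 ± 0.79 and Cd14, the endotoxin co-receptor, by 5.27 ± 0.37. Ptprc, the leukocyte antigen CD45, stood at 31.4, 19.6 and 34.5 CPM against 2.30, 0.959 and 2.13 CPM and rose by 3.95 ± 0.72 (adjusted p = 0.00124). The receptor of the growth factor CSF1 did not follow: Csf1r stood at 98.7, 53.9 and 116.6 CPM on the scaffold and 75.2, 74.5 and 67.2 CPM in the strips, and the groups overlapped (adjusted p = 0.686). Cx3cr1, the fractalkine receptor of resident gut macrophages, did not pass either (-0.30 ± 0.91, adjusted p = 0.798).

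The genes of antigen presentation by MHC class II did not rise with the macrophage genes. In that list 1 of 7 tested genes rose and 2 fell. Cd74, the invariant chain, stood at 11.6, 26.0 and 11.5 CPM on the scaffold and 19.9, 4.92 and 19.7 CPM in the strips (adjusted p = 0.86), with strips replicate 2 below all other libraries. H2-Eb1, a class II beta chain, fell by 2.06 ± 0.48 (adjusted p = 0.00505), at 1.20, 1.30 and 1.27 CPM against 7.64, 1.46 and 6.61 CPM, and again strips replicate 2 was close to the scaffold. In the list of lymphocytes and mast cells 10 of 20 genes had too few counts to be tested, 2 rose and 3 fell. The T cell genes Cd3e and Cd8a were among those not tested, with Cd8a at 0, 0 and 0 CPM on the scaffold and 0.0548, 0.0417 and 0.0348 CPM in the strips.

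Most genes of the gut epithelium and of red blood cells, which a muscle strip can carry along, were close to 0 in the culture. In the intestinal epithelium list 16 of 19 tested genes fell and 1 rose (median -6.21). Their summed level was 374, 3907 and 526 CPM in strips replicates 1 to 3 and 134, 89.1 and 159 CPM on the scaffold. Most of the scaffold sum came from Anpep, a peptidase that mesenchymal and myeloid cells also carry, at 122, 77.5 and 144 CPM against 42.9, 53.9 and 47.0 CPM in the strips (adjusted p = 0.0773). Epcam, the epithelial adhesion molecule, stood at 13.4, 64.2 and 12.1 CPM in the strips and 0.369, 0.404 and 0.262 CPM on the scaffold and fell by 6.48 ± 0.87 (adjusted p = 0.000243), or by 5.25 without strips replicate 2. Without that library 16 genes of the list were called lower and the median was -5.04. Of the 8 genes in the red blood cell list 5 were tested, and all of these fell. Their median was -9.81, or -9.01 with genes without a count at their bound. Hba-a1, an alpha globin with a near-identical copy in Hba-a2, had no count on the scaffold and 30.5, 11.5 and 5.24 CPM in the strips, and was at least 922-fold lower. Strips replicate 1 was the highest, and without it the bound was 490.3-fold.

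Cycling genes were lower after 28 days of culture than in the tissue. In the list of cell cycle and DNA replication 24 of 28 genes fell and 1 rose (median -1.69). Mki67, the proliferation antigen Ki-67 (ENSMUSG00000031004, chromosome 7, 135689784 to 135716361, minus strand), stood at 49.6, 37.2 and 52.0 CPM on the scaffold and 204, 276 and 223 CPM in the strips. The groups did not overlap, and Mki67 fell by 2.34 ± 0.34 (adjusted p = 0.000369). Rrm2, a subunit of the enzyme that makes deoxynucleotides, fell by 2.93 ± 0.46, Cdk1, the kinase of mitotic entry, by 1.66 ± 0.27, and Ccne2, cyclin E2 of the G1 to S step, by 2.18 ± 0.30. The member that rose was Ccnd1, cyclin D1, which growth factors and adhesion induce, at 125, 234 and 231 CPM against 52.0, 41.7 and 54.5 CPM, 1.99 ± 0.53 on the log2 scale. The strips also carried epithelial RNA, and its part in this result was not tested. The summed level of epithelial genes was 374, 3907 and 526 CPM in strips replicates 1 to 3, where Mki67 was 204, 276 and 223 CPM. Without strips replicate 2, 24 genes of the cell cycle list were lower and the median was -1.67. The other strips carried epithelial RNA too, so leaving out that library does not take it away.

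Genes of cell cycle arrest and p53 targets rose in 17 of 20 cases and fell in 1 (median 1.48). Cdkn2a, the locus of the inhibitors p16 and p19 (ENSMUSG00000044303, chromosome 4, 89274471 to 89294653, minus strand), stood at 7.71, 22.0 and 28.8 CPM on the scaffold and 0.548, 0.542 and 0.603 CPM in the strips and rose by 5.10 ± 0.48 (adjusted p = 3.87e-05). Its neighbour Cdkn2b, the inhibitor p15, rose by 5.95 ± 0.59, from 0.739, 2.38 and 0.51 CPM to 48.3, 72.0 and 85.5 CPM. Replicate 1 was the lowest scaffold library for both, and Cdkn2b rose by 6.80 without strips replicate 2. Pmaip1, the p53-induced death factor Noxa, rose by 5.14 ± 0.54 (5.92 without strips replicate 2), and Aen, a p53-induced nuclease, by 1.34 ± 0.16. Cdkn1b, the inhibitor p27 of resting cells, was the member that fell, by 0.68 ± 0.12 (adjusted p = 0.000914).

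Many matrix genes rose, and nearly all proteases and protease inhibitors of the matrix. Of 25 collagen chains 10 rose and 3 fell (median 0.76), and of 26 glycoproteins and proteoglycans 17 rose and 2 fell (median 1.06). In the protease list 22 of 25 rose and 0 fell (median 3.33). Mmp3, stromelysin (ENSMUSG00000043613, chromosome 9, 7445822 to 7455975, plus strand), stood at 77.7, 132 and 505 CPM on the scaffold and 0.137, 0.0417 and 0.186 CPM in the strips. Replicate 3 was highest, and Mmp3 rose by 10.67 ± 0.98 (adjusted p = 3.48e-05), or by 9.49 without that library. Mmp12, the elastase of macrophages, stood at 182, 55.7 and 91.6 CPM against 0.164, 0.0834 and 0.0696 CPM and rose by 10.09 ± 1.08. Mmp14, a membrane-bound collagenase, rose by 2.31 ± 0.17, and the aggrecan-cutting proteases Adamts4 and Adamts5 rose by 4.01 ± 0.29 and 3.04 ± 0.26.

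Among the collagen chains, Col1a1 and Col1a2, the chains of type I collagen, rose by 1.95 ± 0.27 and 2.17 ± 0.26. Col4a3 and Col4a4, chains of a specialised basement membrane collagen, fell by 4.62 ± 0.43 and 6.56 ± 0.81. Col4a4 went from 32.7, 49.0 and 33.5 CPM in the strips to 0.338, 0.373 and 0.469 CPM on the scaffold, with no overlap. The laminin genes Lama5 and Lamc1 fell by 1.13 ± 0.25 and 0.67 ± 0.15. Among the cell surface receptors of matrix, Itgb3 fell by 3.88 ± 0.41 while Itgb5, another partner of the same alpha chain, rose by 2.16 ± 0.14 (adjusted p = 6.58e-05 and 8.16e-06). Thbs1, thrombospondin, rose by 4.47 ± 0.28, and Bgn, biglycan, by 4.31 ± 0.33. Lox, the enzyme that cross-links collagen, rose by 3.13 ± 0.20 and was lower on the scaffold than on the plate by a log2 difference of -0.93 ± 0.18 (adjusted p = 0.0311). In the joint list of integrins and laminins 7 of 25 rose and 9 fell, and 4 were higher without scaffold replicate 3 or strips replicate 1.

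Chemokine and cytokine genes were higher on the scaffold. Of 24 tested genes 20 rose, 0 fell and 4 did not pass (median 4.56). Their summed level was 614, 2734 and 842 CPM on the scaffold and 209, 185 and 185 CPM in the strips. Without scaffold replicate 2, the highest, 16 were higher and the median was 3.37. Cxcl5, a neutrophil chemokine (ENSMUSG00000029371, chromosome 5, 90759360 to 90761624, plus strand), stood at 79.8, 330.3 and 63.5 CPM on the scaffold and 0.0821, 0.0417 and 0.0696 CPM in the strips. It was highest in replicate 2, and Cxcl5 rose by 11.13 ± 1.59 (adjusted p = 0.000328), or by 9.98 without that library. Ccl2, the monocyte chemokine, stood at 40.1, 435 and 73.1 CPM against 1.31, 0.459 and 0.673 CPM and rose by 7.79 ± 1.09 (6.09 without scaffold replicate 2). Il1rn, the antagonist of the interleukin 1 receptor, rose by 7.99 ± 0.96 (8.59 without strips replicate 3), and its scaffold levels of 15.5, 8.73 and 17.9 CPM were lowest in replicate 2. Lif, a cytokine of the interleukin 6 family, rose by 4.20 ± 0.51.

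The NF-kB motif was searched as GGGRNNYYCC, where R is A or G, Y is C or T and N is any base. In the 250 bases before the start site, the motif was found in 7 of 19 chemokine and cytokine genes with a window (36.8%), namely Il6, Lif, Csf1, Ccl20, Cxcl1, Cxcl2 and Cxcl10, and in 2225 of 27025 genes (8.23%). In complement and acute phase genes it was found in 2 of 11 (18.2%), Steap4 and Il1r1. The windows of Cxcl1 (chr5:90891145-90891244, plus strand), Cxcl10 (chr5:92348969-92349068, minus strand) and Il6 (chr5:30013014-30013113, plus strand) are shown because they hold the motif, in capitals, and the RNA of all 3 genes was highest in scaffold replicate 2. The first match begins 71, 159 and 44 bases before the respective start, both strands were searched, and overlapping matches are joined in one run of capitals. The windows come from the RefSeq table of build GRCm38.p6.
Cxcl1: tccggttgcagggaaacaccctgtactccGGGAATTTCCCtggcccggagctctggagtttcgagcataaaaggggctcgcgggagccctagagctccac
Cxcl10: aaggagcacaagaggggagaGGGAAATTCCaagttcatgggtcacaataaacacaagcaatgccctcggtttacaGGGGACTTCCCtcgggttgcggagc
Il6: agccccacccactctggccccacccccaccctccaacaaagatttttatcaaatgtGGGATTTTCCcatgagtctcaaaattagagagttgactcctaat
Cxcl1, a chemokine of neutrophils, stood at 38.7, 132 and 12.2 CPM on the scaffold and 0.192, 0.167 and 0.0928 CPM in the strips and rose by 8.78 ± 1.34 (adjusted p = 0.000471). Cxcl10, a chemokine that interferon also induces, stood at 8.57, 115 and 6.91 CPM against 0.246, 0.125 and 0.267 CPM (rise of 7.55 ± 1.34). Il6, interleukin 6, picked for its motif after its values were seen, stood at 2.46, 31.0 and 13.9 CPM against 0.274, 0.5 and 0.209 CPM and rose by 5.71 ± 1.28 (adjusted p = 0.004). Without scaffold replicate 2 these rises were 7.497, 5.07 and 4.76. No scaffold library overlapped a strip for any of the 3, which the rule for the largest rises required of Cxcl1. The motif says nothing of what bound there.

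Acute phase and complement genes rose in 16 of 17 cases, with 0 lower (median 3.84). Lcn2, the iron-sequestering lipocalin of neutrophils and stressed epithelium, stood at 140.4, 415 and 142 CPM against 0.411, 0.334 and 0.835 CPM and rose by 8.65 ± 1.76 (adjusted p = 0.00228), or by 7.92 without scaffold replicate 2 and 9.24 without strips replicate 3. Steap4, a metalloreductase induced in inflammation, rose by 4.73 ± 0.33, from 22.9, 23.3 and 20.7 CPM to 479.6, 810.2 and 481 CPM. In the interferon list the counts were smaller, 10 of 24 higher and 1 lower (median 1.44), and the median was 0.26 without scaffold replicate 2. Bst2, the antiviral tether protein tetherin, rose by 2.88 ± 0.37. Ifit1, an antiviral RNA-binding protein, did not pass, at 10.4, 78.8 and 11.1 CPM on the scaffold against 3.92, 17.6 and 5.54 CPM in the strips (adjusted p = 0.0851). It was called higher without scaffold replicate 1 (2.33, adjusted p = 0.0485) or strips replicate 2 (2.80, adjusted p = 0.0383). Gbp2, a guanylate-binding protein, fell by 0.94 ± 0.26 (adjusted p = 0.0107).

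**Figure D4:**
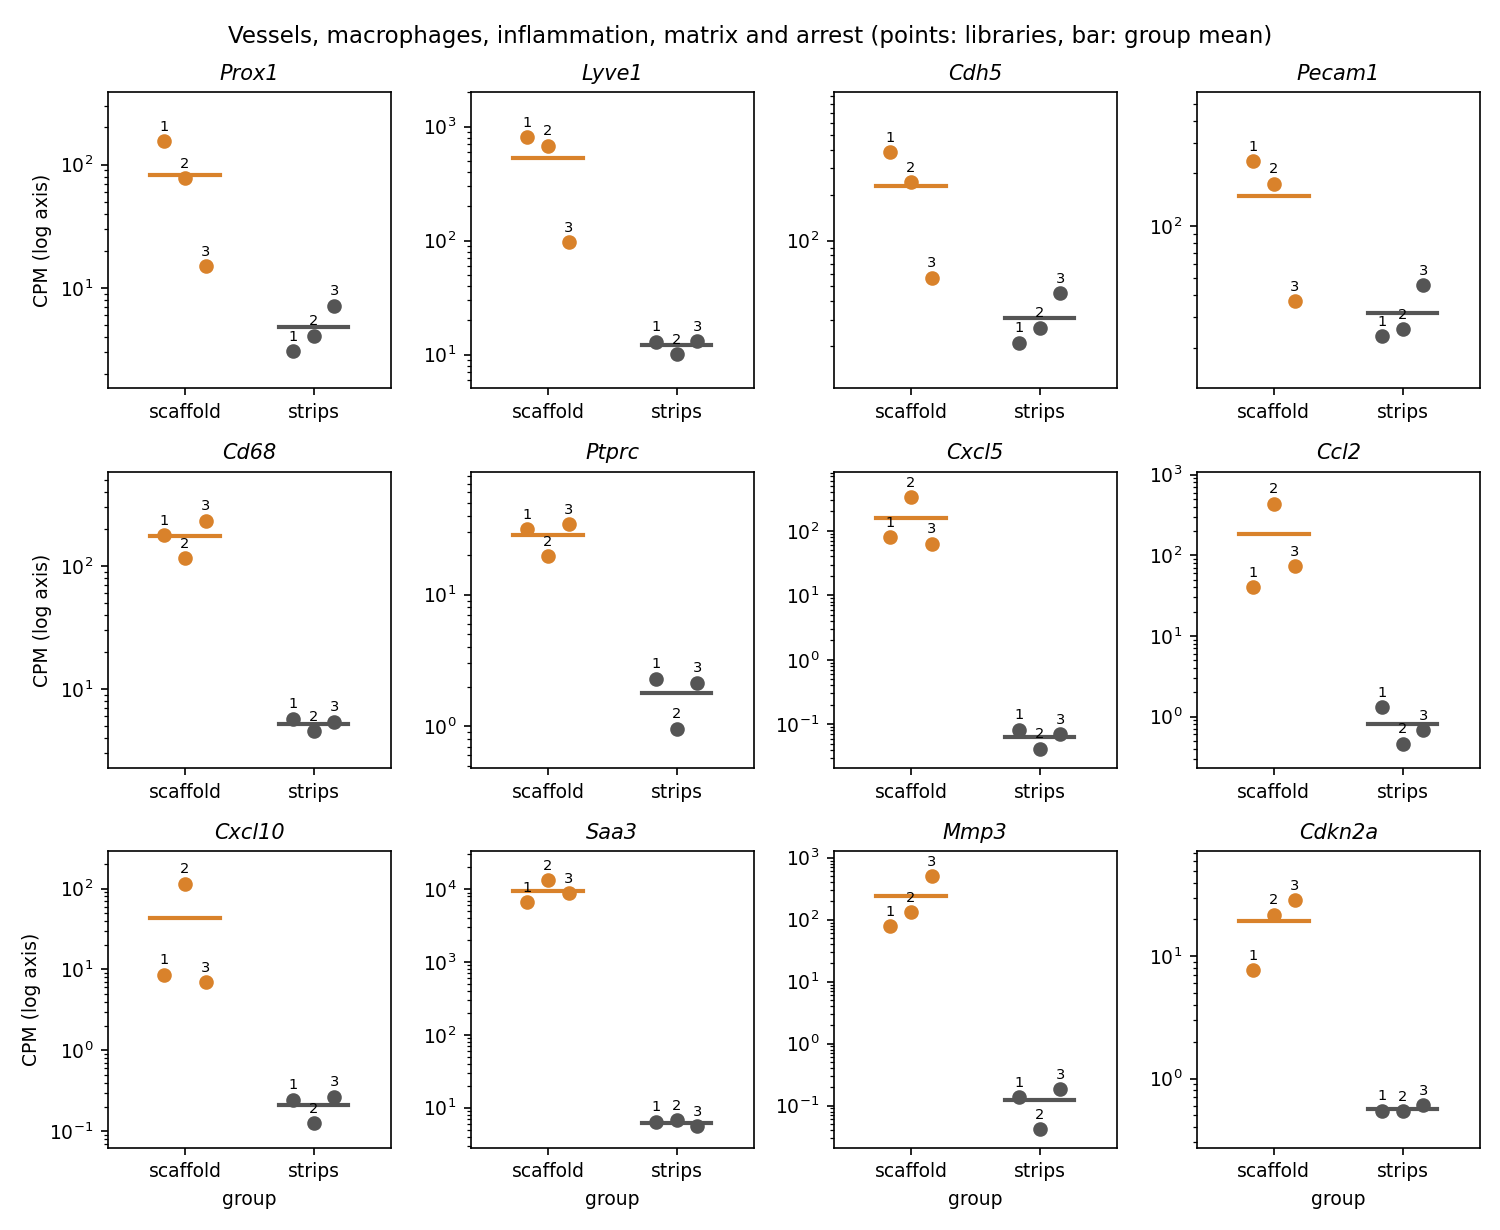
CPM of 12 genes of vessels, macrophages, inflammation and cell cycle arrest (log axis, vertical) in the 3 scaffold libraries (orange) and the 3 strips (grey), 1 point per library labelled with its replicate number, with a bar at the group mean. Among the scaffold libraries, Prox1, Lyve1 and Cdh5 are lowest in replicate 3. Cxcl5, Ccl2 and Cxcl10 are highest in scaffold replicate 2, and Saa3, Mmp3 and Cdkn2a are higher in every scaffold library than in every strip. The rule for the largest rises required this of Saa3 and Mmp3.

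Immediate early genes, which respond quickly to growth signals and stress, were higher on the scaffold in 17 of 21 cases and lower in 0 (median 1.49). Junb, a subunit of AP-1, stood at 111, 157 and 223 CPM on the scaffold and 8.76, 11.3 and 8.52 CPM in the strips and rose by 4.10 ± 0.26 (adjusted p = 8.16e-06). Egr2 and Egr3, zinc finger factors, rose by 5.82 ± 0.50 and 4.69 ± 0.46, and Egr3 was higher than on the plate by 1.84 ± 0.40 (adjusted p = 0.0409). The CArG box was found in 2 of 17 genes of this list with a window (11.8%), Egr2 and Zfp36. The list of heat shock and the unfolded protein response had 12 of 20 higher and 0 lower. Its members Xbp1, a factor of the endoplasmic reticulum response, and Trib3, a pseudokinase induced by amino acid shortage, rose by 1.16 ± 0.13 and 4.47 ± 0.58. Trib3 stood at 22.6, 12.7 and 61.8 CPM against 1.51, 1.46 and 1.44 CPM, highest in scaffold replicate 3, and rose by 3.59 without it.

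Genes of sugar use and of respiration moved in opposite directions. Of 25 genes of glycolysis and glucose transport 16 rose and 2 fell (median 1.02), with 10 higher without strips replicate 1. The summed level was 4309.8, 2984 and 8758 CPM on the scaffold and 2570.5, 2708 and 2826 CPM in the strips, and the median was 0.56 without scaffold replicate 3, the highest. Ldha, the enzyme that turns pyruvate to lactate, stood at 518, 352 and 1053 CPM on the scaffold and 211, 219.5 and 216 CPM in the strips. It was highest in replicate 3, above the strips in all 3, and rose by 1.57 ± 0.33 (adjusted p = 0.00299), or by 1.02 without scaffold replicate 3. Within 2 pairs of isoforms, 1 rose and the other fell. Pfkl, the liver form of phosphofructokinase, rose by 2.29 ± 0.41 (1.601 without scaffold replicate 3) and the muscle form Pfkm fell by 0.84 ± 0.17. The insulin-responsive transporter gene Slc2a4 fell by 1.79 ± 0.48 and the constitutive Slc2a1 rose by 3.998 ± 0.73 (2.47 without scaffold replicate 3).

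In the list of hypoxia-inducible genes 11 of 20 rose and 0 fell (median 1.66). Without scaffold replicate 3 the counts were 9 and 3 and the median 0.59, and without scaffold replicate 2, 16 rose. Vegfa, the vascular growth factor, stood at 44.3, 26.9 and 229 CPM on the scaffold and 32.2, 39.8 and 32.4 CPM in the strips, so replicate 3 alone was far above the tissue, and it did not pass (adjusted p = 0.0663). Vegfa was called higher without scaffold replicate 1 (1.89, adjusted p = 0.0364) or replicate 2 (1.96, adjusted p = 0.0148). Adm, the vasodilator peptide adrenomedullin, rose in all 3, at 34.2, 164 and 138 CPM against 4.57, 3.29 and 4.42 CPM (4.76 ± 0.71, adjusted p = 0.000402). P4ha1, a subunit of the collagen-hydroxylating enzyme, rose by 2.27 ± 0.33, and Ddit4, an inhibitor of the growth kinase mTORC1, by 1.67 ± 0.21.

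Of 30 nuclear genes of the respiratory chain 26 fell and 0 rose (median -0.76). Ndufb8, a subunit of complex I (ENSMUSG00000025204, chromosome 19, 44548572 to 44555440, minus strand), stood at 74.3, 54.8 and 77.0 CPM on the scaffold and 288, 279 and 268 CPM in the strips. The groups did not overlap, and Ndufb8 fell by 2.02 ± 0.13 (adjusted p = 9.38e-06). Cox6c and Cox4i1, subunits of complex IV, fell by 1.49 ± 0.12 and 1.42 ± 0.13. The 7 tested genes of the mitochondrial genome also fell (median -0.93), among them mt-Nd1 by 1.25 ± 0.23, and 6 others had almost no counts in the deposited table and were not tested. The mitochondrial genome has close copies in the nucleus, so counts of its genes are uncertain.

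**Figure D5:**
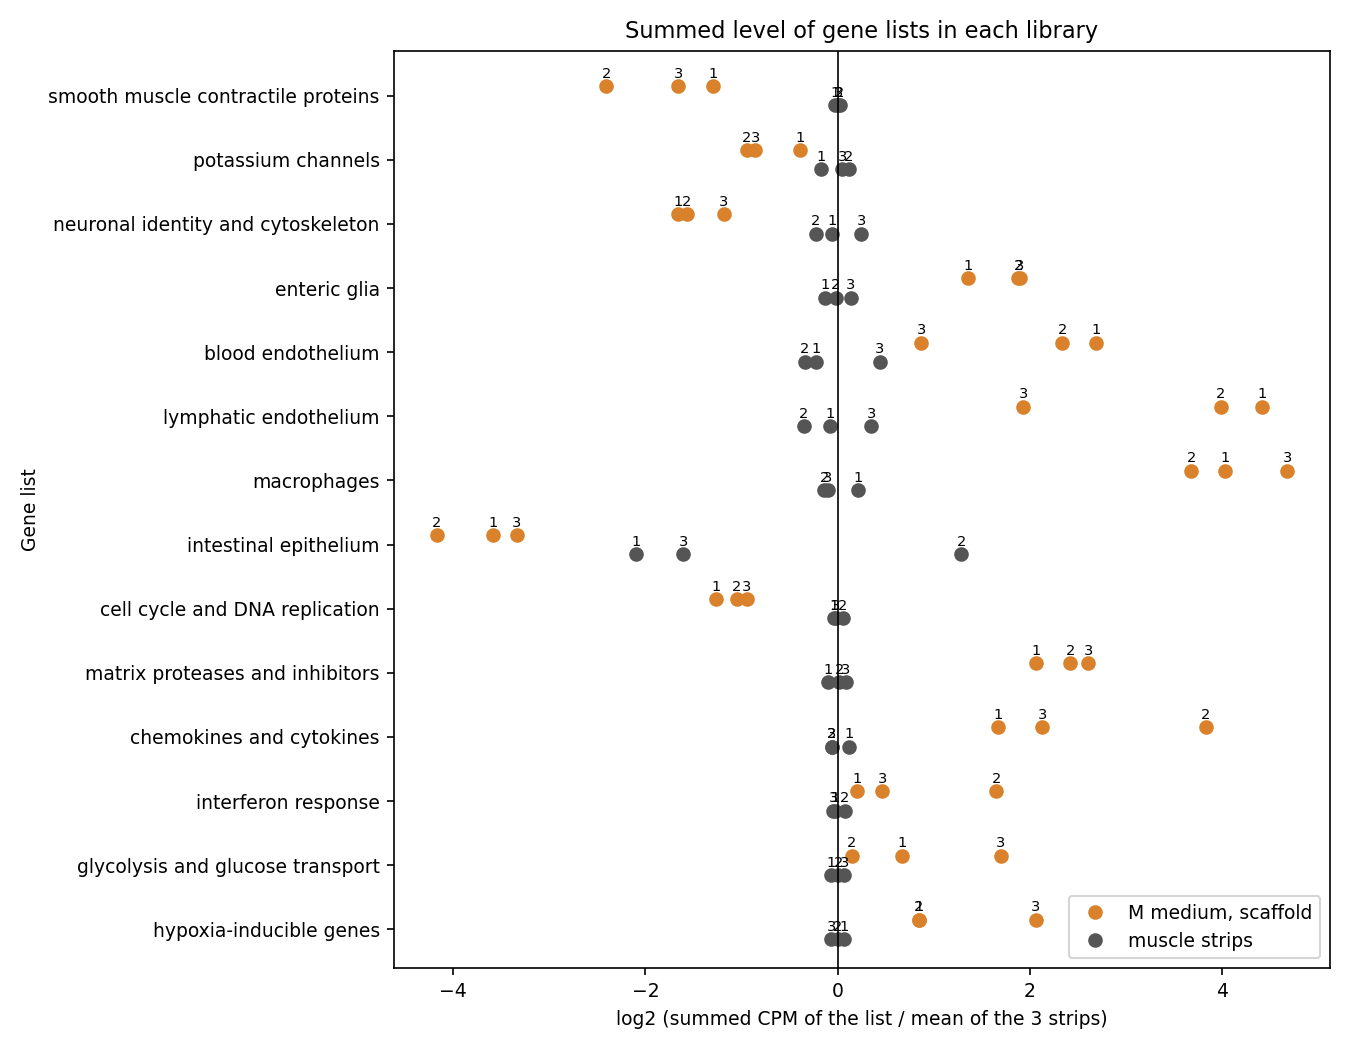
Summed CPM of the members of 14 gene lists in each of the 6 libraries divided by the mean of the 3 strips (log2 scale, horizontal axis), with scaffold libraries in orange and strips in grey, each point labelled with its replicate number. Scaffold replicate 2 is the lowest for contractile proteins and the highest for chemokines and interferon genes. Scaffold replicate 3 is the highest for glycolysis and hypoxia genes and the lowest scaffold library for both endothelial lists. Strips replicate 2 is the highest strip for intestinal epithelium.

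Of the antioxidant genes under the factor NRF2, 16 of 20 rose and 0 fell (median 1.27). Srxn1, sulfiredoxin, rose by 2.36 ± 0.22, from 22.9, 33.8 and 24.8 CPM to 112, 128 and 179 CPM, and Mt1, the metal-binding protein metallothionein, rose by 3.90 ± 0.49 (3.30 without scaffold replicate 3). Sod3, the extracellular superoxide dismutase, rose by 3.22 ± 0.30. In cholesterol and fatty acid synthesis 7 of 26 rose and 1 fell (median 0.25), and 11 rose without scaffold replicate 1 and 4 fell without scaffold replicate 3. Scd1 and Scd2, which put a double bond into fatty acids, rose by 2.66 ± 0.29 and 1.36 ± 0.23.

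The signalling pathways that the medium addresses, BMP through Noggin and Wnt through R-spondin1, gave mixed counts. In the BMP list 9 of 22 fell and 5 rose, with 3 higher without any 1 of 5 of the 6 libraries (all but scaffold replicate 3). The ligand genes Bmp5 (other genes' exons over 46.7% of its exons) and Bmp7 fell by 4.29 ± 0.59 and 2.31 ± 0.26, and the receptor gene Bmpr1b by 2.56 ± 0.40. Grem1, a secreted BMP antagonist that gut muscle makes, rose by 0.72 ± 0.17, from 942, 995 and 927 CPM to 1512, 1958 and 1261 CPM. In the Wnt list 9 of 26 fell and 4 rose, with 5 lower without scaffold replicate 2 and 14 with the 6 compared libraries alone. Lgr4, a receptor of R-spondins, fell by 1.56 ± 0.14, and Znrf3, the ubiquitin ligase that R-spondins counter, by 1.19 ± 0.26. Nkd1, a feedback inhibitor that Wnt induces, fell by 1.20 ± 0.31, and the secreted antagonist gene Sfrp1 rose by 2.14 ± 0.37. Wnt4, a ligand, rose by 4.30 ± 0.62, at 42.7, 15.4 and 119 CPM against 3.26, 1.96 and 3.66 CPM, or by 3.28 without scaffold replicate 3.

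TGF-beta genes rose in 11 of 18 cases and fell in 3 (median 1.01), with 1 lower without scaffold replicate 2 or strips replicate 3. Tgfb1, the ligand, stood at 158, 149 and 115 CPM on the scaffold and 21.7, 24.4 and 24.9 CPM in the strips and rose by 2.57 ± 0.27 (adjusted p = 5.97e-05). Inhbb, the beta B chain of activin and inhibin, rose by 5.74 ± 0.42, from 1.78, 1.96 and 2.35 CPM to 121, 138 and 70.8 CPM, with no overlap. Ltbp2, a latent TGF-beta binding protein, rose by 2.96 ± 0.31. Tgfbi, a secreted adhesion protein that TGF-beta induces, fell by 1.06 ± 0.25 and was higher on the scaffold than on the plate by 1.08 ± 0.25 (adjusted p = 0.0489). Targets of YAP, which answers to mechanical tension, rose in 7 of 20 cases and fell in 3 (median 0.28), with 4 higher without scaffold replicate 2 or strips replicate 1 and 5 lower without scaffold replicate 1. Ccn1, a matrix-associated signal, stood at 103, 121 and 339 CPM against 36.3, 47.6 and 32.4 CPM. It was highest in scaffold replicate 3, and rose by 2.28 ± 0.52, or by 1.54 without that library. Axl, a receptor tyrosine kinase, rose by 1.98 ± 0.23, and Nt5e, the ectoenzyme that makes adenosine, fell by 2.95 ± 0.46.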

How the data were processed

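The data are raw counts, whole numbers of reads per Ensembl gene in 1 table deposited by the authors, with 1 column per library. Per the labels' protocols, Qiashredder and RNeasy kits gave the RNA and the TruSeq kit v2 the libraries. STAR 2.6.0 and the builds GRCm38 and mm10 are named per the submitters' processing notes. No source used here gives the counting program, annotation or strand setting, or how the 2 technical replicates per sample of the series text were joined. The 5 summary rows were left out (reads outside features came to 4.48% to 5.12% on the scaffold and 6.82% to 7.87% in the strips). The summary row of alignments that were not unique held 0.684 to 0.802 per gene count on the scaffold and 0.771 to 0.880 in the strips. Reads of genes with near-identical copies may therefore be missing from the counts. Symbols and GRCm38 coordinates came from GENCODE for 52403 of 52550 genes.

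Genes were filtered with filterByExpr (17700 left), scaled by TMM and tested with edgeR 4.0.16 in R 4.3.3 by the quasi-likelihood F test. The model had group as its sole term and took in all 12 libraries (8 residual degrees of freedom). Adjusted p values are two-sided, by Benjamini-Hochberg over 17700 genes, with calls under 0.05. The SE of a log2 fold change is its size divided by the root of F. A fold against a group without counts was taken against 3 counts over the group. The script was tested on simulated data. The labelled P medium libraries carried 10% FBS and served for the spread only. Alternatives were DESeq2 1.42.0, limma-voom (limma 3.58.1), RLE scaling, other count filters, glmTreat at 2-fold, the 6 compared libraries alone, a replicate block, leaving out each library and leaving out mitochondrially encoded genes.

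The members and gene lists were chosen with earlier results of these data known. By rule the text could name the 15 largest rises and falls whose higher group averaged 20 CPM or more and whose libraries did not overlap, up to 4 members of a list in its main direction and 2 in the other, a panel of markers, and members that did not pass. Some genes that the rule took are not reported here. Ccl20, Csf1, Cxcl2, Il1r1 and Zfp36 were named for their promoter motif, after their values were seen. Promoter windows came from a RefSeq table of build GRCm38.p6.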

Additional observations from a re-analysis of the deposited data

Results flagged for a closer look

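The scaffold and the plate had the same medium and were each set against the strips. For the genes below that difference from the strips was itself of another size on the scaffold, since scaffold and plate differed at an adjusted p under 0.05 in the edgeR fit, where the strips cancel out. These calls were few after leaving out plate replicate 2 (7 higher and 11 lower among all genes). On the log2 scale, the value was higher on the scaffold than on the plate for A2m (3.45), Grp (2.71), Ckm (2.22), Kcnj8 (2.00), Egr3 (1.84), S100b (1.70), Cdh19 (1.52), Chgb (1.49), Gap43 (1.44), Kcnma1 (1.23), Syt1 (1.21), Pde9a (1.18), Tgfbi (1.08), Ano1 (1.07), Srxn1 (0.89) and Ndn (0.65). It was lower on the scaffold than on the plate for Gja4 (-4.85), Plvap (-3.35), Emcn (-2.64), Reln (-2.23), Meg3 (-1.56) and Lox (-0.93). A2m stood at 105, 89.7 and 103 CPM on the plate against 761, 1100.1 and 1401 CPM on the scaffold and 0.931, 1.21 and 1.26 CPM in the strips, so both cultures were above the tissue. Gja4 stood at 9.74, 3.78 and 8.59 CPM on the plate, 0.369, 0.217 and 0.198 CPM on the scaffold and 3.26, 2.08 and 7.39 CPM in the strips, so the scaffold lay below both.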

How the results depend on the processing

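Scaffold against strips was stable in its counts: other scaling, filters, models and tools gave 3775 to 4641 genes higher and 4400 to 5287 lower, and leaving out 1 library gave 3382 to 4100 higher and 4324 to 4594 lower. The test against a 2-fold change gave 1211 higher and 1947 lower, of which 38.3% were higher, against 47.1% in the main count. No call of the 9228 reversed in any of these, and 7504 to 9146 were kept outside the 2-fold test (3158 within it). The median over all genes moved by less than 0.1 with the scaling.

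Scaffold against plate was not stable: leaving out 1 library gave 7 to 225 higher and 11 to 131 lower.

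No source used here says that the replicate numbers mark a shared animal or day, so they were no term of the main model. The deviations of same-numbered scaffold and strips libraries had correlations of -0.081, -0.021 and -0.043. With 3 libraries a group these values cannot decide whether the libraries were paired. With the replicate block, 4179 were higher and 4777 lower in 12 libraries and 3775 and 4400 in the 6 compared. Against the plate the block in 12 libraries gave 222 higher and 169 lower.

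Of 195 called genes named in the text, 35 did not pass the 2-fold test, Pecam1 did not pass without single libraries or with the block in 6 libraries (adjusted p = 0.0898), and Msln and Il6 did not pass with limma-voom (adjusted p = 0.0531 and 0.0519). Among named genes that did not pass, Chrm2, Gja1, Kcnn3, Etv1, Tubb3, Anpep, Upk3b and Wt1 passed in the 6 compared libraries alone, with the largest adjusted p at 0.0421 for Chrm2. Cnn1, Des, Vegfa and Ifit1 passed with DESeq2, with adjusted p of 0.0418, 0.0466, 0.0298 and 0.0355.

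Counts under 3 in a group cannot show a fold beyond the floor given, and 3 libraries a group limit the precision of every SE.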

Other observations

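Hox genes encode factors that set position along the body axis. Of 25 tested Hox genes 13 fell and 2 rose (median -0.75), and 4 rose without strips replicate 1. Hoxb5, a factor of the gut wall mesenchyme and of enteric neurons, fell by 2.80 ± 0.20 (adjusted p = 1.13e-05), from 96.4, 87.4 and 122 CPM in the strips to 16.6, 14.2 and 13.2 CPM on the scaffold, and Hoxa4 fell by 3.24 ± 0.27. Hoxd9 and Hoxd8 rose by 4.68 ± 0.68 and 1.59 ± 0.34. Hoxc8 stood at 55.7, 4.80 and 36.2 CPM in strips replicates 1 to 3, so that replicate 2 was far below the other strips, and at 54.1, 53.4 and 47.3 CPM on the scaffold. Of 14 imprinted genes, of which the copy from 1 parent is silenced, 4 rose (28.6%) and 5 fell (35.7%), near the 24.5% and 27.6% of all genes tested. The noncoding RNA gene H19 rose by 3.44 ± 0.29, from 517, 325 and 534 CPM to 5141, 4209 and 5529 CPM, and Meg3, Peg3 and Ndn fell by 2.23 ± 0.35, 1.59 ± 0.21 and 1.24 ± 0.15. Grb10, an adaptor that restrains growth signals, rose by 1.43 ± 0.23.

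Among the insulin-like growth factors and their binding proteins 8 of 13 rose and 2 fell (median 1.90). Igfbp3, Igfbp4 and Igfbp7 rose by 5.06 ± 0.53, 1.93 ± 0.20 and 2.80 ± 0.26, and Igf1r, the receptor, fell by 0.65 ± 0.12. In the list of fat cell genes 4 of 7 rose and 2 fell: Lpl, the lipoprotein lipase that macrophages also make, rose by 4.90 ± 0.49, from 29.5, 14.2 and 23.1 CPM to 716, 694 and 579.9 CPM, and Pparg, a lipid-sensing nuclear receptor, rose by 3.10 ± 0.41. Car3, a carbonic anhydrase of fat and muscle, fell by 5.40 ± 0.48. Clock genes were mixed, with 7 of 19 higher and 2 lower (4 with the 6 compared libraries alone): Npas2, a partner of the clock factor BMAL1, rose by 2.53 ± 0.33, and Cry2, a repressor of the clock, fell by 0.55 ± 0.11. No source used here gives the hour at which RNA was taken.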
